A study of Mus musculus with 18 samples.

Results

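The genes described here are the 10 that encode the non-laminin core of the muscle basement membrane: the 6 collagen IV chains (Col4a1 to Col4a6), the nidogens Nid1 and Nid2, perlecan (Hspg2) and agrin (Agrn). They were taken by name from the gene table of each library, and all 10 were found among the 48709 genes listed, 31665 of them with an exon length above 0. All 10 also passed the filter on low counts in each fit, so every member was tested. RNA of the quadriceps muscle of 18 mice was sequenced in bulk, with 1 library for each mouse. Wild type mice (WT) were C57BL/6J. The mutants (dyW) were B6.129S1(Cg)-Lama2tm1Eeng/J mice, in which the gene of the laminin alpha 2 chain, Lama2, is disrupted in all tissues, and the labels call the mutants of the colony hemizygotes. There were 3 untreated WT, 4 untreated dyW, 3 WT PBS, 3 dyW PBS, 2 WT TD139 and 3 dyW TD139 mice, and each group held both sexes. TD139 is an inhibitor of galectin-3, and PBS is its vehicle by the library names; its dose, route and duration are not given in the labels. By the age labels untreated mice were 5 weeks old and PBS and TD139 mice 3 weeks, whereas the protocol has tissue taken at 5 weeks throughout; which holds for the latter is not settled here.

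A basement membrane is a thin sheet that wraps each muscle fibre, capillary, Schwann cell and smooth muscle cell. Its laminin network binds the receptors of the cell, its collagen IV network gives tensile strength, and nidogens, perlecan and agrin connect these networks to each other and to the cell surface. Collagen IV molecules are trimers: the alpha 1 and alpha 2 chains form the trimer found in nearly all basement membranes, whereas the alpha 3, alpha 4, alpha 5 and alpha 6 chains form trimers with a restricted distribution, which in muscle includes the neuromuscular junction. The dyW mouse, used to model the muscular dystrophy of laminin alpha 2 deficiency, lacks most of the laminin chain that dominates the sheet around the fibre.

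The 6 collagen IV genes lie as 3 head-to-head pairs, transcribed away from each other (positions on mm10 as deposited). Col4a1 (ENSMUSG00000031502, chr8:11198423-11312826, minus strand) and Col4a2 (ENSMUSG00000031503, chr8:11312805-11449287, plus strand) share 22 bases at their 5′ ends. Col4a4 (ENSMUSG00000067158, chr1:82448423-82586849, minus strand) and Col4a3 (ENSMUSG00000079465, chr1:82586921-82722059, plus strand) have 71 bases between their 5′ ends. Col4a6 (ENSMUSG00000031273, chrX:141165403-141474076, minus strand) and Col4a5 (ENSMUSG00000031274, chrX:141475385-141689234, plus strand) have 1308 bases between theirs. The sequences around these starts are shown because the levels of the 3 pairs are compared below. They come from the RefSeq promoter table (GRCm38.p6), which held a window for 8 of the 10 genes and covers 250 bases before to 50 after each start.
The first, chr8:11312801-11312830 on the minus strand, has the bases that lie in both genes in capitals.
Col4a1 and Col4a2: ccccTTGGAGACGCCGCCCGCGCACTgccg
The next, chr1:82586835-82586935 on the minus strand, has the bases between the 5′ ends in capitals.
Col4a4 and Col4a3: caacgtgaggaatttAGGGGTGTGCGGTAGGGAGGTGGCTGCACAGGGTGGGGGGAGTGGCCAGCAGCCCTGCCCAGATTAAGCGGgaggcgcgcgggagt
The last ones lie on the facing sides of the third pair, chrX:141474077-141474326 on the minus strand and chrX:141475169-141475384 on the plus strand, with matches to CCAAT or GGGCGG on either strand in capitals.
Col4a6: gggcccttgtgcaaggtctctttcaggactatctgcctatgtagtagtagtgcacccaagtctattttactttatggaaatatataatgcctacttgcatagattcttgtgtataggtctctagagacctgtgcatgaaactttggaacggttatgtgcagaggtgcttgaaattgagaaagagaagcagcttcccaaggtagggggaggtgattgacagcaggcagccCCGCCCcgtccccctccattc
Col4a5: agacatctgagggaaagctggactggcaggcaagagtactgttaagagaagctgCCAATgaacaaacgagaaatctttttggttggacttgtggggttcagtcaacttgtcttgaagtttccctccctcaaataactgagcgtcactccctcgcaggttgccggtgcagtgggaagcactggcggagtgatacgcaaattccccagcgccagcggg
Over the whole windows, CCAAT or its reverse complement occurred in those of Col4a1, Col4a2, Col4a5 and Nid1 and in 37.9% of the windows of all 27025 genes in the table. GGGCGG or its reverse complement occurred in the windows of Col4a1, Col4a2, Col4a5, Col4a6, Nid1, Hspg2 and Agrn and in 35.9% of all windows. TATAAA, on either strand, occurred in no window of these genes and in 14.2% of all windows. The share of G and C was 74.0% and 73.7% in the windows of Col4a1 and Col4a2, 63.3% in that of Col4a4, 52.7% and 48.3% in those of Col4a5 and Col4a6, and 52.7% at the median of all windows. In the windows of Nid1, Hspg2 and Agrn it was 64.7%, 70.3% and 83.3%. GGGCGG holds G and C alone, and the part of base composition in its matches was not tested.

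Some facts of the series bear on these genes. Depth was 15814395 to 45249183 exon reads per library, the lowest being dyW PBS replicate 1. Lama2, the targeted gene, was lower in both dyW comparisons (0.545 to 0.832 RPKM in untreated dyW against 4.46 to 5.02 in untreated WT, edgeR adjusted p = 6.7e-05; 0.656 to 0.786 in dyW PBS against 3.19 to 4.58 in WT PBS, adjusted p = 0.000912). RPKM is a read count scaled by exon length and library size. RPKM values were higher in dyW for most genes, with a median log2 difference over all genes of 0.51 in the untreated mice and 0.25 in the PBS mice by limma on log2(RPKM + 0.1), against 0.03 and −0.03 after TMM scaling; every level below is in RPKM, and every fitted fold change is after TMM scaling. WT PBS replicate 1 stood apart from its group. Its summed Schwann cell markers were 593.7 RPKM against 34 and 49.2 in the other WT PBS libraries, its summed endothelial markers 145.8 against 66.4 and 69.3, and its slow myosin gene Myh7 441.8 against 0.0208 and 0.0638. In untreated dyW, Myh7 was 236 and 291 RPKM in replicates 3 and 4 against 0.807 and 21.0 in replicates 1 and 2. The fibre gene Ckm, which checks the tissue label, stood at 6130 to 8190 RPKM in untreated WT, and of the kidney and epithelial markers Krt5 and Umod were at 0 in all 18 libraries.

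The members differed widely in level, and a similar order held in every group. In untreated WT muscle, Col4a1 had 63.8 ± 5.07 RPKM (SD, n = 3) and Col4a2 39.5 ± 1.88. Nid1 (26.8 ± 3.26) and Hspg2 (23.4 ± 1.43) followed and did not differ beyond their spread. Nid2 stood at 4.59 ± 0.354, Col4a5 at 2.08 ± 0.559 and Agrn at 1.66 ± 0.349, the last pair again within their spread. Col4a4 had 0.773 ± 0.285, Col4a3 0.436 ± 0.135 and Col4a6 0.109 ± 0.0298 RPKM. The minor chains therefore rest on few reads: Col4a6 had 4 to 57 reads per library and Col4a3 19 to 224, against 10694 to 42844 for Col4a1. In the other groups Agrn lay above Col4a5, and Nid1 lay above Hspg2 in untreated dyW, dyW PBS, dyW TD139 and WT TD139.

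**Figure D1:**
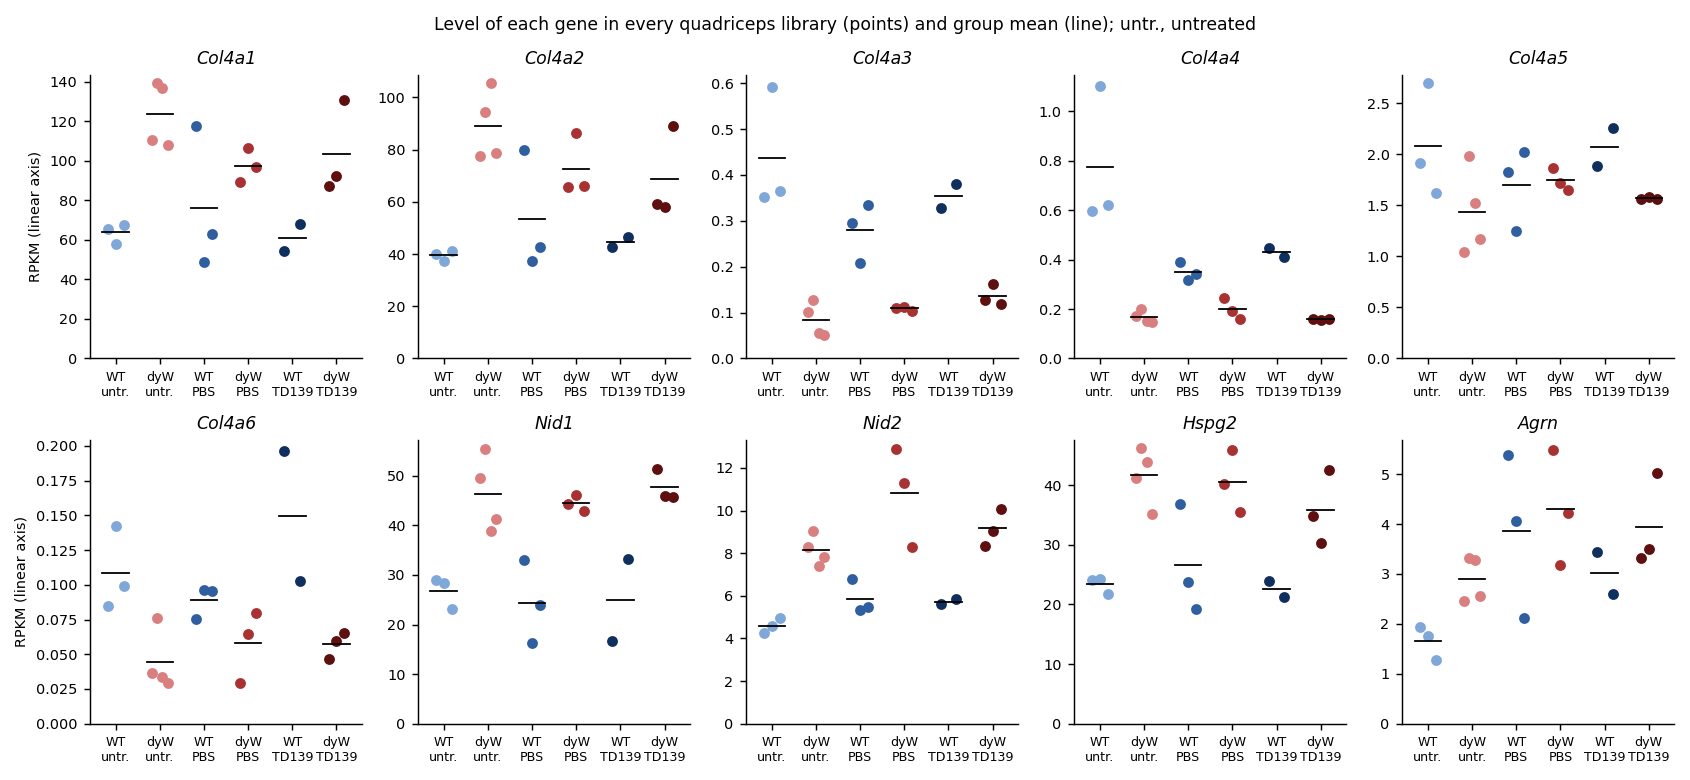
RPKM of each of the 10 genes (linear axes that start at 0) in every library, by group; points are mice and lines are group means. Col4a3 and Col4a4 sit lower in all dyW groups than in the WT groups. Col4a1 and Col4a2 have higher mean RPKM in each dyW group than in any WT group, highest in untreated dyW. They are also high in 1 WT PBS library (117.5 and 79.9 RPKM).

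The first comparison asks how these genes differ between dyW and WT muscle in untreated mice. The ubiquitous chains Col4a1 and Col4a2 rose and the 4 restricted chains Col4a3 to Col4a6 fell. Nid1, Nid2, Hspg2 and Agrn had log2 fold changes of 0.25 to 0.28 that did not pass the test. By edgeR, 2 members were thus higher and 4 lower, against 24.7% of all 14846 genes tested higher and 25.1% lower, so with 49.8% of all genes called the count of members called is close to the background. The median log2 fold change was 0.26 over the members and 0.03 over all genes tested. In whole muscle, fewer cells of a type and less RNA per cell cannot be told apart.

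Col4a1, which supplies a pair of the chains of the ubiquitous trimer, stood at 65.7, 58.0 and 67.7 RPKM in untreated WT and at 111, 139, 137 and 108 in untreated dyW. All 4 dyW libraries were above all 3 WT libraries. The fitted log2 fold change was 0.40 (SE 0.15, 95% interval 0.07 to 0.74, edgeR adjusted p = 0.0477), and this call is marginal: it held in 8 of 16 alternatives, and it was lost without WT replicate 1, 2 or 3 (adjusted p = 0.129, 0.136 and 0.0745) and without dyW replicate 2 or 3 (adjusted p = 0.0806 and 0.0725). Col4a2, the partner chain, stood at 40.0, 37.4 and 41.0 RPKM in WT and at 77.7, 94.5, 105 and 78.9 in dyW, again without overlap. Its log2 fold change was 0.62 (SE 0.14, 95% interval 0.30 to 0.94, edgeR adjusted p = 0.00682), which held in all 16 alternatives. In the authors' deposited table of dyW against WT, Col4a1 had 0.377 (FDR p = 0.261) and Col4a2 0.592 (FDR p = 0.0449), so their call for Col4a1 differed from the edgeR call.

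Col4a3 and Col4a4, whose chains join alpha 5 in the trimer best known from the kidney glomerulus, had the largest changes of the family. Col4a3 stood at 0.352, 0.592 and 0.365 RPKM in WT and at 0.1002, 0.127, 0.0543 and 0.04997 in dyW. Its log2 fold change was −2.94 (SE 0.40, 95% interval −3.84 to −2.04, edgeR adjusted p = 0.000626). Col4a4 stood at 0.596, 1.10 and 0.622 RPKM in WT and at 0.171, 0.1998, 0.153 and 0.148 in dyW. Its log2 fold change was −2.76 (SE 0.28, 95% interval −3.40 to −2.12, edgeR adjusted p = 0.00023). For both genes the highest dyW library lay below the lowest WT library, and WT replicate 2 was the highest of all 18 libraries. Both calls held in all 16 alternatives, including the RPKM scale and the fit without WT replicate 2. Nphs1, a marker of podocytes, the kidney cells best known for these chains, was at 0 in all 3 untreated WT libraries.

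Col4a5 encodes the alpha 5 chain shared by both restricted trimers, and its levels on the RPKM scale overlapped: 1.92, 2.70 and 1.62 in WT against 1.05, 1.99, 1.52 and 1.17 in dyW. After TMM scaling the groups did not overlap and the log2 fold change was −1.10 (SE 0.26, 95% interval −1.69 to −0.52, edgeR adjusted p = 0.00781). By limma on log2(RPKM + 0.1) the difference was −0.52 (adjusted p = 0.104), and without dyW replicates 3 and 4, those with high Myh7, it was −0.94 (edgeR adjusted p = 0.0527). Col4a6, which pairs with alpha 5 around smooth muscle, had 0.0846, 0.142 and 0.0993 RPKM in WT and 0.0365, 0.0764, 0.0339 and 0.0296 in dyW, with no overlap. Its log2 fold change was −1.84 (SE 0.42, 95% interval −2.79 to −0.89, edgeR adjusted p = 0.00666), and it rests on 24 to 43 reads per WT library and 9 to 27 per dyW library. The call was lost by limma on log2(RPKM + 1), a pseudocount far above these levels (adjusted p = 0.0607).

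The linkers and proteoglycans were higher in dyW on the RPKM scale and not called after TMM scaling. Nid1, the main nidogen, stood at 29.0, 28.4 and 23.04 RPKM in WT and at 49.6, 55.3, 38.8 and 41.3 in dyW (log2 fold change 0.25, 95% interval −0.17 to 0.67, edgeR adjusted p = 0.282). Nid2, its less abundant paralog, stood at 4.25, 4.57 and 4.96 in WT and at 8.31, 9.05, 7.40 and 7.83 in dyW (log2 fold change 0.28, 95% interval −0.05 to 0.60, edgeR adjusted p = 0.139). Hspg2, the heparan sulfate proteoglycan perlecan, stood at 24.1, 24.3 and 21.7 in WT and at 41.3, 46.3, 43.8 and 35.2 in dyW (log2 fold change 0.28, 95% interval −0.05 to 0.62, edgeR adjusted p = 0.137). For each of these genes, and for Agrn, every dyW library was above every WT library in RPKM.

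Agrn, whose nerve-derived form clusters acetylcholine receptors and whose muscle form ties laminin to dystroglycan, stood at 1.94, 1.76 and 1.27 RPKM in WT and at 2.45, 3.33, 3.28 and 2.55 in dyW (log2 fold change 0.26, 95% interval −0.09 to 0.62, edgeR adjusted p = 0.191). In RPKM, 6 members were higher without overlap between the groups and 3 lower, against 51.3% and 9.94% of all genes tested. After TMM scaling, 2 were higher without overlap and 4 lower, against 26.5% and 27.3%. By limma on log2(RPKM + 0.1) all 4 of Nid1, Nid2, Hspg2 and Agrn passed the threshold, with differences of 0.78, 0.81, 0.83 and 0.78 against the median of 0.51 over all genes, of which that fit called 7636 of 14846 higher; limma with a pseudocount of 1 called them too. Without dyW replicates 3 and 4, Nid1 (0.51, adjusted p = 0.0312) and Nid2 (0.45, adjusted p = 0.0391) also passed in edgeR. Beside these changes, 4 of 8 endothelial, 5 of 8 pericyte and smooth muscle, 5 of 8 fibroblast and 5 of 8 Schwann cell markers were higher in untreated dyW, against 24.7% of all genes. Of the pericyte and smooth muscle list 2 were lower, Abcc9 (−2.04) and Rgs5 (−0.60), named after their values were seen; the other 3 lists had 0 lower. Their summed RPKM was 48.3 to 62.5 in WT and 92.2 to 117.5 in dyW for endothelial cells, 124 to 148 and 162 to 216 for pericytes and smooth muscle, 589 to 730 and 1193 to 2186 for fibroblasts, and 9.79 to 23 and 50.7 to 104 for Schwann cells. These sums hold the RPKM shift of all genes, a median of 0.51 on the log2 scale, and the rise for pericytes and smooth muscle is near it. Of 8 fast fibre markers 7 were lower, at a summed 71680 to 86260 RPKM in WT and 47130 to 60300 in dyW. The part of these cell types in the changes of the 10 genes was not tested.

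**Figure D2:**
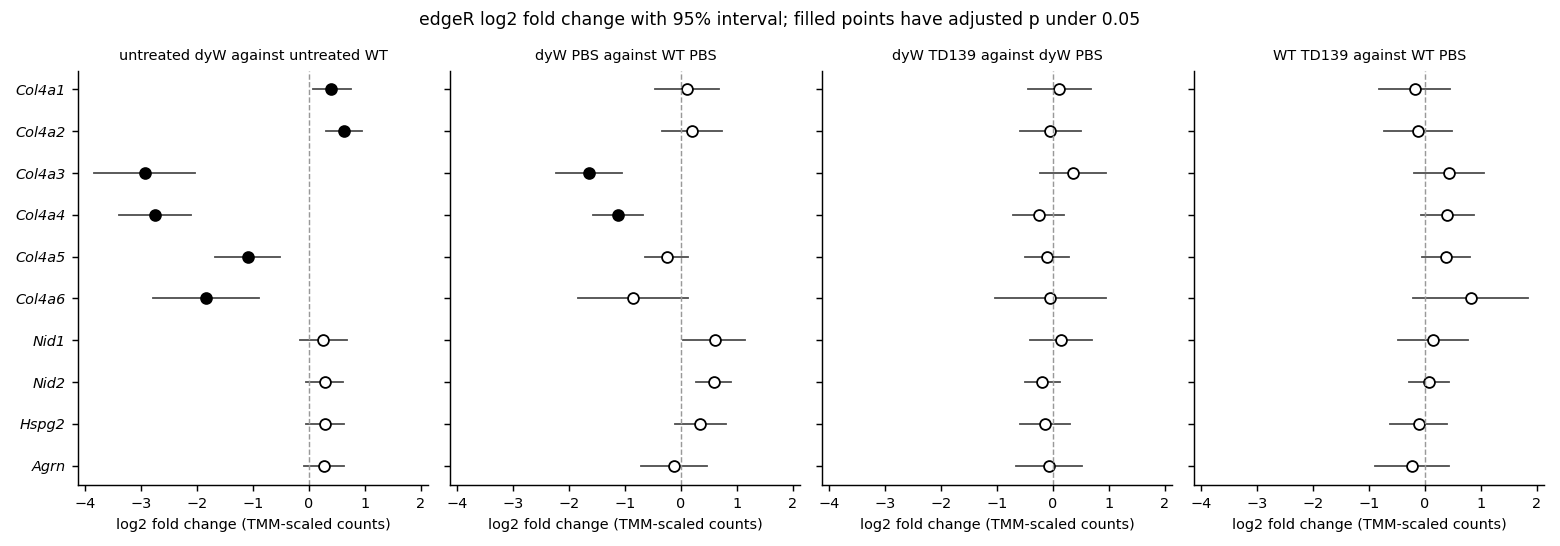
Fitted log2 fold changes of the 10 genes in 4 comparisons, on TMM-scaled counts, with 95% intervals; filled points passed an adjusted p of 0.05 in edgeR. Filled points lie below 0 for Col4a3 to Col4a6 and above 0 for Col4a1 and Col4a2 in untreated mice, and are left for Col4a3 and Col4a4 in PBS mice.

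**Figure D3:**
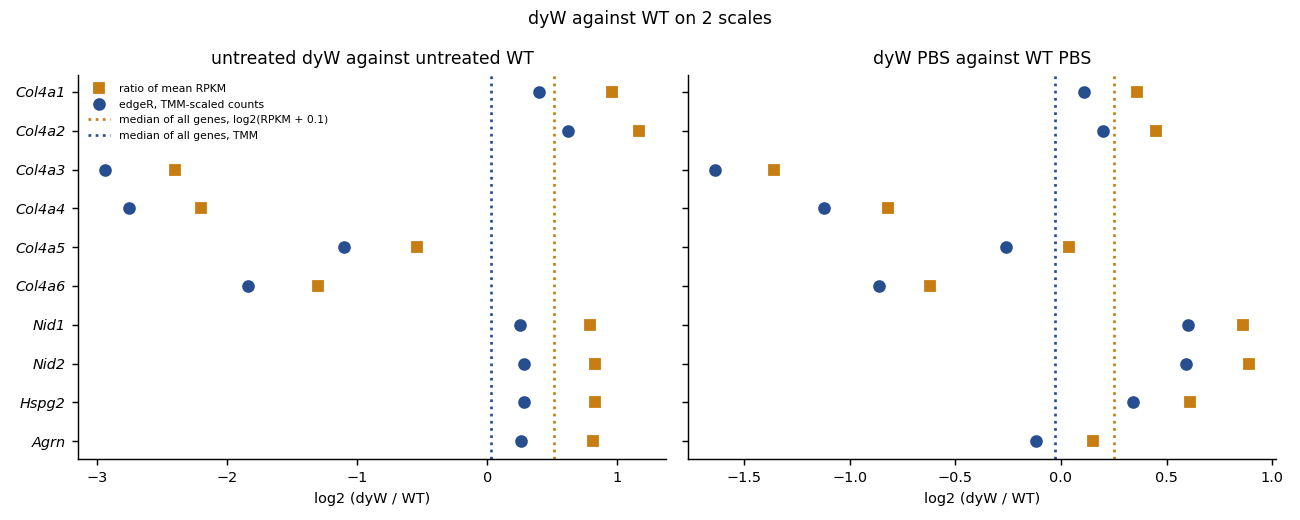
log2 ratios of dyW to WT for the 10 genes from mean RPKM (squares) and from TMM-scaled counts in edgeR (circles), with the median of all genes on each scale as a dotted line. The scales differ by a near-constant shift, and Nid1, Nid2, Hspg2 and Agrn lie at 0.79 to 0.83 in RPKM and 0.25 to 0.28 after TMM scaling in untreated mice.

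The second comparison is the same contrast in the mice that received the vehicle. Col4a3 and Col4a4 fell here too, and no other member passed the test. By edgeR 0 members were thus higher and 2 lower, while 2.68% of all 15331 genes tested were called, 2.4% higher and 0.28% lower. At an unadjusted p under 0.05, 4 members and 2315 of all genes passed; DESeq2 called Nid2 as higher in addition to Col4a3 and Col4a4. The median log2 fold change was −0.01 over the members and −0.03 over all genes. In all, 43 genes were lower.

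Col4a3 stood at 0.296, 0.209 and 0.334 RPKM in WT PBS and at 0.110, 0.113 and 0.104 in dyW PBS. The log2 fold change was −1.64 (SE 0.27, 95% interval −2.24 to −1.05, edgeR adjusted p = 0.0102) and was called in all 14 alternatives. Col4a4 stood at 0.389, 0.316 and 0.343 in WT PBS and at 0.245, 0.191 and 0.158 in dyW PBS. Its log2 fold change was −1.12 (SE 0.20, 95% interval −1.57 to −0.68, edgeR adjusted p = 0.015); the call was lost without dyW PBS replicate 2 (adjusted p = 0.0626), without WT PBS replicate 3 (adjusted p = 0.0606) and with limma on the log2(RPKM + 0.1) scale (−0.60, adjusted p = 0.0946) or the log2(RPKM + 1) scale (−0.17, adjusted p = 0.0689). Neither gene overlapped between the groups. The fast fibre markers, which were lower in untreated dyW, had no member called here. Their summed RPKM was 64500 in WT PBS replicate 1, 114400 and 111100 in the other WT PBS libraries, and 76260 to 90280 in dyW PBS. Their median log2 fold change was −0.58. An unadjusted p under 0.05 in edgeR was reached by 2 of 8, and by 2315 of all 15331 genes. Their part in the fall of Col4a3 and Col4a4 was not tested.

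Col4a5 stood at 1.83, 1.249 and 2.02 RPKM in WT PBS and at 1.87, 1.72 and 1.65 in dyW PBS (log2 fold change −0.26, 95% interval −0.65 to 0.13, edgeR adjusted p = 0.545). Col4a6 stood at 0.0753, 0.0962 and 0.0957 in WT PBS and at 0.0290, 0.0643 and 0.0800 in dyW PBS, the lowest of these from 4 reads in the shallowest library (log2 fold change −0.86, 95% interval −1.84 to 0.13, edgeR adjusted p = 0.406). Both genes overlapped between the groups.

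Nid2 was the member nearest to a rise. It stood at 6.77, 5.33 and 5.47 RPKM in WT PBS and at 12.9, 11.3 and 8.31 in dyW PBS, without overlap. The log2 fold change was 0.59 (SE 0.14, 95% interval 0.27 to 0.90, edgeR adjusted p = 0.053), and 5 of 14 alternatives called it. Nid1 stood at 33.1, 16.3 and 23.9 in WT PBS and at 44.2, 46.2 and 42.9 in dyW PBS, also without overlap (log2 fold change 0.60, 95% interval 0.04 to 1.15, edgeR adjusted p = 0.297). In RPKM 2 members were higher without overlap and 2 lower, against 23.2% and 1.35% of all genes; after TMM scaling the counts were again 2 and 2, against 11.1% and 6.51%.

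Col4a1, Col4a2, Hspg2, Nid1, Nid2 and Agrn were each highest, among WT PBS mice, in replicate 1, the library with high Schwann and endothelial markers. Col4a1 stood at 117.5, 48.7 and 62.8 RPKM in WT PBS and at 89.1, 107 and 97.1 in dyW PBS, with a log2 fold change of 0.11 (95% interval −0.46 to 0.68, edgeR adjusted p = 0.894) and of 0.43 without that library (adjusted p = 0.323). Col4a2 stood at 79.9, 37.4 and 42.6 against 65.8, 86.3 and 66.0, with 0.20 (95% interval −0.35 to 0.74, edgeR adjusted p = 0.771) and 0.48 without it (adjusted p = 0.261). Hspg2 stood at 36.9, 23.8 and 19.2 against 40.3, 46.0 and 35.5, with 0.34 (95% interval −0.11 to 0.80, edgeR adjusted p = 0.48) and 0.54 without it (adjusted p = 0.162). Agrn stood at 5.39, 4.06 and 2.11 against 5.48, 3.18 and 4.22, with −0.12 (95% interval −0.71 to 0.47, edgeR adjusted p = 0.883) and 0.08 without it, so that its direction turned. Without that library Nid1 had 0.76 and Nid2 0.61, and Col4a3 (−1.69, adjusted p = 0.0141) and Col4a4 (−1.14, adjusted p = 0.0202) were still called.

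The genotype difference of Col4a4 was larger in untreated than in PBS mice. Fitted on all 18 libraries, the difference between the log2 fold changes was −1.65 (SE 0.33, 95% interval −2.36 to −0.94, edgeR adjusted p = 0.0369). It was the single member called, as 1 of 272 genes, or 1.72% of 15771 tested, with 0.526% called higher and 1.2% lower. The call held in 10 of 21 alternatives and was lost, for example, without untreated WT replicate 2, the library with the highest Col4a4 (adjusted p = 0.0865), and without WT PBS replicate 1 (adjusted p = 0.0772). Col4a3 (−1.31, 95% interval −2.32 to −0.29, adjusted p = 0.128) and Col4a5 (−0.86, 95% interval −1.53 to −0.18, adjusted p = 0.134) had the same sign and did not pass in edgeR. None of the other differences passed in edgeR, with adjusted p-values of 0.341 to 0.889. Cohort, age label and injection cannot be told apart in this contrast.

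Levels within a library, which no scaling between libraries can move, show the shift in collagen IV composition. Col4a1 and Col4a2 together made up 95.5% to 97.6% of the summed collagen IV RPKM in untreated WT and 99.0% to 99.3% in untreated dyW. The share of Col4a3 and Col4a4 was 0.873%, 1.69% and 0.886% in the untreated WT mice and 0.143%, 0.138%, 0.0849% and 0.105% in the untreated dyW mice. It was 0.342%, 0.597% and 0.6253% in WT PBS and 0.226%, 0.156% and 0.159% in dyW PBS, and 0.777% and 0.672% in WT TD139 against 0.194%, 0.207% and 0.126% in dyW TD139. Within each of these 3 treatment settings no dyW library reached a WT library, and the lowest WT value was that of WT PBS replicate 1. The share of Col4a5 and Col4a6 was 1.54% to 2.84% in untreated WT and 0.571% to 0.874% in untreated dyW. In PBS mice it was 0.953% to 1.96% in WT and 0.914% to 1.21% in dyW and overlapped. With TD139 it was 2.00% to 2.09% in WT and 0.733% to 1.09% in dyW, without overlap.

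**Figure D4:**
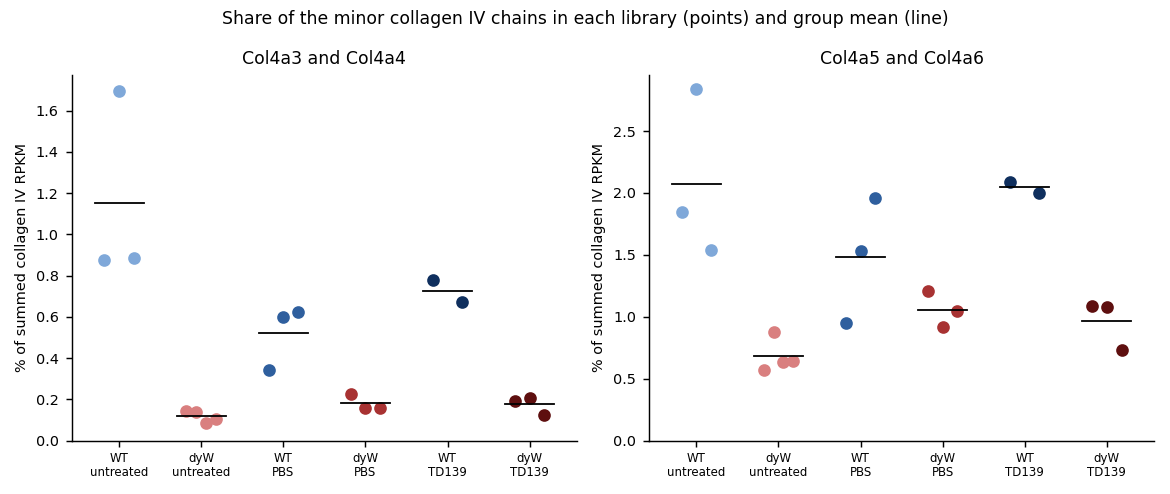
Share of the minor chains in the summed RPKM of the 6 collagen IV genes, in percent (axes start at 0), in every library; points are mice and lines are group means. Col4a3 and Col4a4 make up 0.342% to 1.69% in WT libraries and 0.0849% to 0.226% in dyW libraries.

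The ratio between the partners of a head-to-head pair varied to different degrees, at very unlike read counts. Col4a1 over Col4a2 was 1.24 to 1.65 in RPKM over the 18 libraries, while Col4a1 itself ran from 48.7 to 139. The ratio was 1.55 to 1.65 in untreated WT and 1.30 to 1.47 in untreated dyW, without overlap. In PBS mice it was 1.302 to 1.474 in WT and 1.237 to 1.472 in dyW, with overlap. With TD139 it was 1.27 to 1.472 in WT and 1.465 to 1.59 in dyW. A lower ratio in dyW without overlap was thus seen in untreated mice alone, and it was not tested. Col4a3 over Col4a4 ran from 0.337 to 1.05, and Col4a5 over Col4a6 from 9.62 to 64.4, where Col4a6 rests on as few as 4 reads. Col4a3 and Col4a4 rest on as few as 19 and 45 reads, against at least 10694 and 7524 for Col4a1 and Col4a2. Low counts widen such a range and lower a correlation, and their part in the differences between the pairs was not tested. For comparison, Nid1 over Nid2, whose genes lie on chromosomes 13 and 14, ran from 2.95 to 6.81. Across the 18 libraries, which share the group differences and the TMM scaling, the correlation of log2 CPM was r = 0.92 for Col4a1 with Col4a2, 0.94 for Col4a3 with Col4a4 and 0.83 for Col4a5 with Col4a6. With group means removed it was 0.94, 0.72 and 0.43.

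**Figure D5:**
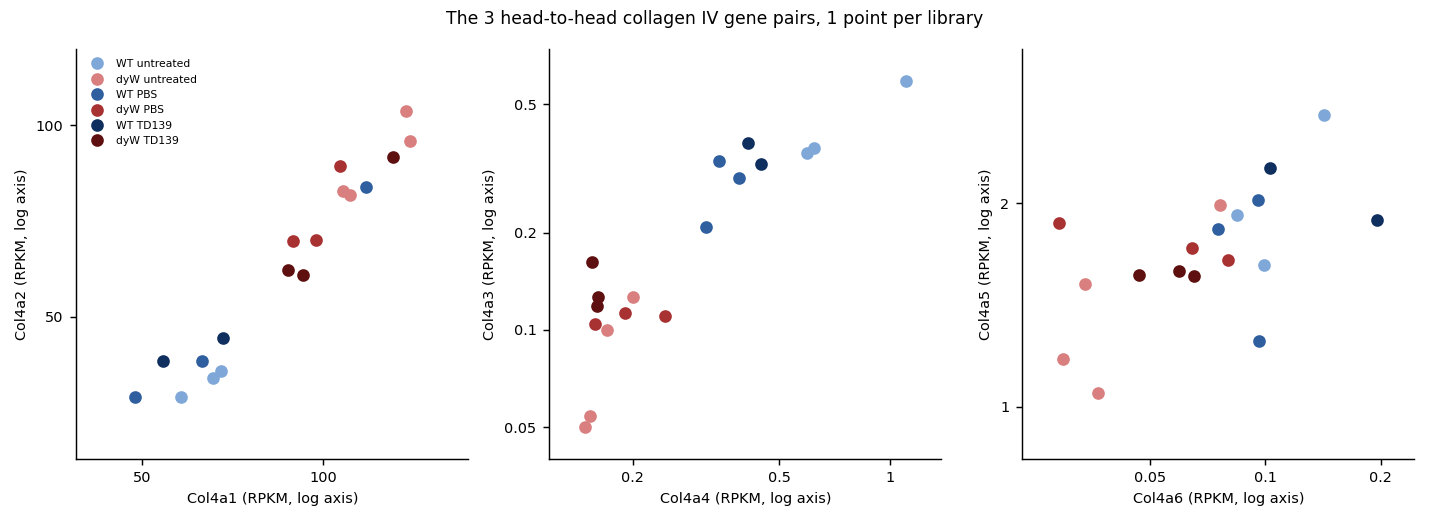
Levels of the partners of each head-to-head pair in RPKM (log axes), 1 point per library, coloured by group. The Col4a1 and Col4a2 points lie along a line with ratios of 1.24 to 1.65, and the spread around a line is wider for the other pairs, which rest on far fewer reads.

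Among 10829 genes, which are the other members and the genes with a mean of at least 1 RPKM in a group, the gene most like Col4a1 over the 18 libraries was Col4a2 (r = 0.92), followed by Arhgap23 (0.89) and Cmip (0.87). For Col4a2 it was Kctd17 (0.94), followed by Col4a1. The genes most like Col4a3 included Epb41 (0.96) and Tbc1d16 (0.96), and those most like Col4a4 included Tiam1 (0.95) and Gid4 (0.94). Col4a5 was nearest to Col4a3 (0.89), Nfatc1 (0.88) and Tbc1d16 (0.88), and Col4a6 to Pde4a (0.92), Abcb6 (0.92) and Suclg1 (0.91). Nid1 was nearest to Fam102b (0.89), Nid2 to Capn6 (0.85), Hspg2 to Cic (0.89) and Agrn to Dock6 (0.95). These values describe likeness over libraries that share the group differences, and carry no test.

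The treatment comparisons ask whether the galectin-3 inhibitor moved these genes. In dyW mice, 0 members were called between TD139 and PBS by edgeR, as were 0 of 15331 genes (0%); at an unadjusted p under 0.05 there were 0 members and 583 genes, and DESeq2 called 0 members and 4 genes. The widest interval was that of Col4a6, −1.04 to 0.95 around −0.05. For Col4a1 the levels in dyW TD139 were 87.3, 92.5 and 131 RPKM, a log2 fold change of 0.11 against dyW PBS (95% interval −0.45 to 0.68). For Col4a2 they were 59.1, 58.2 and 89.2 (−0.05, 95% interval −0.59 to 0.50). In both genes the third mouse was the highest. Col4a3 stood at 0.127, 0.162 and 0.118 in dyW TD139, above all dyW PBS libraries but within a log2 fold change of 0.35 (95% interval −0.24 to 0.95, edgeR adjusted p = 0.888). Col4a4 stood at 0.161, 0.155 and 0.160 (−0.26, 95% interval −0.71 to 0.19), and Col4a5 at 1.57, 1.59 and 1.56, below all dyW PBS libraries (−0.11, 95% interval −0.50 to 0.29). In RPKM, 1 member was higher without overlap and 1 lower, against 6.99% and 7.09% of all genes; after TMM scaling it was again 1 and 1, against 7.19% and 7.08%. Nid1 stood at 51.4, 46.0 and 45.8 (0.15, 95% interval −0.41 to 0.70), Nid2 at 8.35, 9.05 and 10.1 (−0.19, 95% interval −0.50 to 0.13), Hspg2 at 34.8, 30.2 and 42.5 (−0.14, 95% interval −0.59 to 0.31) and Agrn at 3.31, 3.50 and 5.01 (−0.07, 95% interval −0.66 to 0.52).

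In WT mice, with 2 TD139 libraries, 0 members and 0 of 15331 genes (0%) were called by edgeR; at an unadjusted p under 0.05 there were 0 members and 304 genes, and DESeq2 called 0 members and 3 genes. Col4a1 stood at 54.1 and 68.3 RPKM in WT TD139 and Col4a2 at 42.6 and 46.4, both within the range of WT PBS. Their log2 fold changes were −0.18 (95% interval −0.82 to 0.45) and −0.13 (95% interval −0.74 to 0.48), and turned to 0.14 and 0.16 without WT PBS replicate 1. The minor chains had the larger values: 0.43 for Col4a3 (0.327 and 0.379 RPKM), 0.40 for Col4a4 (0.447 and 0.412), 0.38 for Col4a5 (1.89 and 2.25) and 0.82 for Col4a6 (0.196 and 0.103, 95% interval −0.21 to 1.85), all at an edgeR adjusted p of 1. Col4a4 and Col4a6 did not overlap between the groups in RPKM, 2 members higher and 0 lower, against 2.96% and 6.35% of all genes; after TMM scaling these and Nid2 were higher and 0 lower, against 4.82% and 4.25%. Nid1 had 0.15 (16.6 and 33.3 RPKM), Nid2 0.07 (5.63 and 5.83), Hspg2 −0.11 (24.0 and 21.3) and Agrn −0.23 (3.43 and 2.60). Set against each other, the TD139 effects of the dyW and WT mice differed for 0 members and 0% of all genes by edgeR and for 0 members and 1 gene by DESeq2. The member with the smallest p was Col4a4, at −0.66 (95% interval −1.31 to 0.00, adjusted p = 1); 0 members passed at an unadjusted p under 0.05, and of all genes 294 did.

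The genes that make, bind and cut these proteins were counted from lists written from textbook knowledge. In untreated dyW, 24.7% of all 14846 genes tested were higher and 25.1% lower, the shares to set each list count beside. Of 19 genes for chain assembly and crosslinking, 10 were higher and 3 lower in untreated dyW, with a median log2 fold change of 0.40 against 0.03 over all genes. Those with the smallest p were P4ha3, a prolyl hydroxylase subunit (3.25, SE 0.27), Crtap (1.37, SE 0.17), a partner in collagen prolyl hydroxylation, and Ppib, a collagen prolyl isomerase (1.06, SE 0.13). The 3 that fell, named after their values were seen, were P4ha1 (0.498-fold) and P4ha2 (0.658-fold), the other prolyl hydroxylase alpha subunits, and Mia3 (−0.52 on the log2 scale), which acts in collagen export. Of 10 tested laminin chains 3 were higher and 3 lower, Lama2 among the lower. Lama4 (0.82, SE 0.11) and Lamb1 (0.77, SE 0.11) rose. Lama3 (−1.13, SE 0.28), named after its value was seen, fell. Of 17 tested other basement membrane proteins 9 were higher and 2 lower: Fbln2 (1.11, SE 0.16) and Col18a1 (1.04, SE 0.17), which encodes the precursor of endostatin, rose, and Egflam, which encodes the dystroglycan ligand pikachurin, fell by 1.61 on the log2 scale (SE 0.12).

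Of 18 cell surface receptors 6 were higher and 3 lower, against 24.7% and 25.1% of all genes tested. Those with the smallest p were the laminin receptor Bcam (1.87, SE 0.14), Sdc1 (1.52, SE 0.23) and Itgb4 (1.47, SE 0.23). The 3 that fell, named after their values were seen, were the collagen-binding integrin subunits Itga2 (−2.79, SE 0.49) and Itga1 (−1.23, SE 0.22) and dystroglycan, Dag1 (−0.71, SE 0.23). Of 21 tested genes for heparan sulfate chains, which perlecan and agrin carry, 5 were higher and 2 lower: Sulf2, a sulfatase that edits the chains, had 1.34 (SE 0.12), Xylt2, which starts them, 0.99 (SE 0.17), and Ndst1, a sulfotransferase, −1.31 (SE 0.19). The other fall was that of Xylt1, the paralog of Xylt2 (−1.39, SE 0.26), named after its value was seen. Of 12 proteases and inhibitors 7 were higher and 3 lower. Those with the smallest p were Mmp12, the macrophage elastase (5.95, SE 0.43), Timp1, a metalloprotease inhibitor (4.59, SE 0.38), and Mmp14 (2.23, SE 0.26). Lower, and named after their values were seen, were Mmp9 (−2.36, SE 0.36), Adamts1 (−0.65, SE 0.17) and Timp3 (−0.52, SE 0.16). Macrophage markers were higher for 6 of 7 tested, at a summed 54.6 to 86.6 RPKM in untreated WT and 393 to 513 in untreated dyW; the part of these cells was not tested. Of 11 genes of the agrin pathway at the neuromuscular junction 5 were higher and 1 lower. The rises were led by the acetylcholine receptor subunits Chrng (4.60, SE 0.45), Chrnd (2.58, SE 0.31) and Chrna1 (1.73, SE 0.25). The fall, named after its value was seen, was that of Musk (−1.15, SE 0.30). Agrn itself was not called.

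In dyW PBS against WT PBS, the same lists had few calls, where 2.4% of all genes tested were higher and 0.28% lower. In the protease list 4 of 12 were higher, among them Mmp12 (3.66, SE 0.68), Mmp2 (1.21, SE 0.24) and Mmp14 (1.09, SE 0.19). Macrophage markers were higher for 6 of 7 tested here too, at a summed 36.5 to 41.2 RPKM in WT PBS and 105 to 279.5 in dyW PBS; their part was not tested. Chrng (2.78, SE 0.47) and Chrnd (1.24, SE 0.29) were higher, Egflam was lower (−0.95, SE 0.19), and Npnt, which encodes the integrin ligand nephronectin, was higher (1.16, SE 0.25). Lama2 was the 1 laminin chain called, and no gene of the assembly, receptor and heparan sulfate lists was called by edgeR (2 of 19, 1 of 18 and 3 of 22 had an unadjusted p under 0.05, as did 2315 of all 15331 genes). With TD139, no gene of these lists was called in either genotype by edgeR.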

How the data were processed

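Per the submitters' processing notes, reads were mapped to mm10; the aligner and counter are not given in the sources used here. Per the labels' protocols, RNA came from TRIzol extracts (1 ug) with an Illumina Stranded mRNA kit, sequenced as 58 bp pairs. Per the file headers, the authors deposited total exon read counts, unique exon read counts and RPKM values per gene and library; 2 deposited tables of the authors' comparisons give log2 fold changes and FDR-adjusted p-values, by a test not stated.

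The test on the counts was that of edgeR 4.0.16 under R 4.3.3 (quasi-likelihood F-test, TMM, filterByExpr with minimum count 10 and minimum total 15, Benjamini-Hochberg over all genes tested, threshold 0.05); every adjusted p is edgeR's unless another tool is named. The 7 untreated libraries were fitted alone, the 11 treated libraries as 4 groups, and all 18 as 6 groups for the difference between cohorts. log2 CPM used a prior count of 2. Libraries carry their own animal numbers, so the p-values measure the spread between mice. No 2 libraries of a group agreed within sampling noise. The script was tested on simulated counts. Alternatives were DESeq2 1.42.0, RLE factors, no filter, limma 3.58.1 on log2(RPKM + 0.1) and log2(RPKM + 1), unique reads, sex as a term, all 18 libraries together, and leaving out libraries.

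All 10 members are named in each comparison, with Lama2, up to 3 called genes per pathway list by smallest p, and the genes nearest to each member by Pearson correlation among the members and the genes with a mean of at least 1 RPKM in a group and an established symbol. Some genes that these rules name are not reported here. The members, lists and rules were chosen with earlier results of these data known.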

Additional observations from a re-analysis of the deposited data

Results flagged for a closer look

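Col4a6 in untreated dyW had 1 mouse far from the others: replicate 2 at 0.0764 RPKM against 0.0296, 0.0339 and 0.0365, a gap of 0.852 of the group's whole range, from 27 reads against 9 to 14. Without this library the fitted log2 fold change of Col4a6 went from −1.84 to −2.21. Of the 10 members examined this way in the group of 4 mice, chance flags about 1 in 20.

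The genotype effect on Col4a4 differed between the untreated and the PBS mice by −1.65 on the log2 scale (edgeR adjusted p = 0.0369; 0.00214 to 0.109 over the alternatives). All 4 untreated dyW and 3 dyW PBS libraries lay between 0.148 and 0.245 RPKM, while untreated WT stood at 0.596 to 1.10 and WT PBS at 0.316 to 0.389.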

How the results depend on the processing

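In untreated mice, the 10 members with 16 alternatives gave 160 values, of which 138 kept direction and side of the threshold, 12 lost a call, 10 gained one and 0 turned. The number of members higher, 2 as reported, was 1 without the filter, with sex as a term and with all 18 libraries together, 1 to 2 when leaving out each library, 4 without the Myh7-rich dyW libraries, and 6 by limma with either pseudocount; the number lower went from 4 to 2 by limma on log2(RPKM + 1). In PBS mice, 1 member (Nid2) was higher with DESeq2, both limma fits and all 18 libraries together, and 0 to 1 when leaving out each library; the number lower was 1 by both limma fits and 1 to 2 when leaving out each library. The Col4a4 cohort difference fell from 1 call to 0 in both limma fits, without the Myh7-rich libraries, and in part of the fits leaving out 1 library (0 to 1).

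No called value turned sign. Values that turned were all uncalled. By limma with pseudocounts 0.1 and 1, dyW PBS against WT PBS gave 0.06 and 0.03 for Col4a5 and 0.21 and 0.16 for Agrn; WT TD139 gave −0.02 and −0.02 for Nid2; the cohort difference of Hspg2 was 0.17 and 0.17; Col4a6 in dyW TD139 was 0.01 with 0.1. Nid1 in the TD139 interaction was 0.00 on unique reads, and the cohort difference of Hspg2 was 0.00 without the filter and 0.12 without the Myh7-rich libraries. Leaving out each library gave, in dyW PBS against WT PBS, −0.10 to 0.43 for Col4a1 and −0.38 to 0.08 for Agrn; in dyW TD139, −0.06 to 0.21 for Col4a1, −0.25 to 0.11 for Col4a2, −0.35 to 0.27 for Col4a6 and −0.25 to 0.06 for Agrn; in WT TD139, −0.39 to 0.14 for Col4a1, −0.29 to 0.16 for Col4a2, −0.43 to 0.56 for Nid1 and −0.26 to 0.08 for Hspg2; in the TD139 interaction, −0.02 to 0.51 for Col4a1, −0.20 to 0.26 for Col4a2, −0.29 to 0.07 for Col4a3, −0.41 to 0.58 for Nid1, −0.22 to 0.12 for Hspg2 and −0.05 to 0.42 for Agrn; in the cohort difference, −0.04 to 0.49 for Col4a1 and −0.26 to 0.16 for Hspg2. The cause was not tested.

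Over all genes, 49.6% of calls in untreated mice were higher, against 85.5% and 85.2% by limma; in PBS mice 89.5%, against 97.8% by both limma fits, 79.3% with DESeq2 and 77.4% without WT PBS replicate 1. The 411 calls in PBS mice became 864 with DESeq2, 952 and 814 by limma, 656 with all 18 libraries, and 125 to 601 when leaving out each library. The 272 calls of the cohort difference became 1189 with DESeq2, 75 and 111 by limma, 12 without the Myh7-rich libraries, and 0 to 637 when leaving out each library. Where leaving out a library left 1 in WT TD139, that mouse is assumed to vary like the other groups. No paired analysis was possible because each mouse carries its own animal number and no label links mice of different groups.

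Depth limits the minor chains most: Col4a6 had 4 to 57 reads per library and Col4a3 19 to 224.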
